A study of Mus musculus with 2 samples.

Results

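A set of 10 genes that build or bind the microtubules of young neurons were followed across the cell classes of the embryonic mouse dorsal telencephalon. They were the α-tubulin gene Tuba1a, the β-tubulin genes Tubb2a, Tubb2b and Tubb3, the doublecortin-family genes Dcx and Dclk1, the microtubule-associated protein genes Map1b, Map2 and Mapt, and the stathmin gene Stmn2. They were taken by symbol from the gene tables of both libraries, and all 10 were found among 32285 genes. The study concerns the migration of somatostatin-positive cortical interneurons, and the libraries used here describe the tissue through which they migrate. Both libraries belonged to 1 group, WT control embryos of the EomesDot line at E14.5 with no treatment, so no groups of animals could be compared. The series title calls the line Eomes-Cre, the study's methods name C57BL/6J mice, and how these relate is not stated. The libraries are called replicate 2 and replicate 4 after their labels, which do not say whether a library held cells of 1 embryo.

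Microtubules are hollow polymers of α- and β-tubulin dimers, and a migrating neuron uses them to pull its nucleus forward and to steer its leading process. Which tubulin isotypes a cell makes, which proteins sit on the lattice and how fast the ends grow and shrink all change when a progenitor becomes a neuron. Changes in TUBA1A, TUBB2B, TUBB3 and DCX are known causes of human cortical malformations in which neurons fail to reach their place.

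Replicate 2 held 1712 barcodes with 40267872 UMIs and replicate 4 held 2589 barcodes with 49422007 UMIs, a UMI being a tag that marks 1 captured transcript. After filters, 1199 and 1923 cells remained, with medians of 30810 and 22826 UMIs. The libraries shared 3 barcodes, 1 of them among retained cells of both. Cells were clustered without the members and without 88 other microtubule genes, so that none of them shaped a class. Clusters were named from marker lists, and the names are rebuilt here. The comparisons rest on 542 radial glial cell (RGC)-like cells, the apical progenitors, 395 intermediate progenitor cell (IPC)-like cells, the basal progenitors, 1392 excitatory neuron-like cells and 137 medial ganglionic eminence (MGE) interneuron-like cells. Cajal-Retzius-like cells (40), GABAergic neuron-like cells given no sub-class (89) and mesenchymal or mural-like cells (50) entered the same fit. CGE interneuron-like cells (7 and 31, from the caudal ganglionic eminence) were too few in replicate 2 to enter it. The GABAergic neuron-like cells given no sub-class were a mixed set. Of them, 7 and 44 lay in a sub-cluster led by dividing-cell genes such as Top2a and Mki67. Another held 14 and 3, and the last, led by Sst, 0 and 21. In the dividing sub-cluster 8 RGC and 2 GABAergic markers were raised against the median GABAergic sub-cluster, which does not measure GABAergic identity. Over the whole mixed set the GABAergic markers summed to 4198 and 4154 CPM. Since the names come from the marker lists, the sums of the markers are a description and no check of the names: the 12 RGC markers summed to 6950 and 6167 CPM in RGC-like cells and to at most 1218 CPM in either library of IPC-like, excitatory neuron-like and MGE interneuron-like cells, and the 8 GABAergic markers to 3416 and 3269 CPM in MGE interneuron-like cells against 5.19 and 9.64 CPM in excitatory neuron-like cells. CPM is the number of UMIs of a gene for every 1e+06 UMIs of the summed class.

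Tubulins end in an acidic tail that projects from the microtubule, takes up glutamate chains and differs between many of the isotypes. The last 60 coding bases, stop codon included, are shown for the β-tubulin isotypes on which the shares below turn, from the mouse GENCODE transcripts of release 39, with glutamate codons in capitals.
Tubb2a: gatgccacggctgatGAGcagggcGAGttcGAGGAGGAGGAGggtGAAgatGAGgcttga
Tubb2b: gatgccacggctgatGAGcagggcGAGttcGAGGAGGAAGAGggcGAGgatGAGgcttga
Tubb3: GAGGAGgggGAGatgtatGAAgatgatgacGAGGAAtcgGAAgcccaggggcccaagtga
Tubb5: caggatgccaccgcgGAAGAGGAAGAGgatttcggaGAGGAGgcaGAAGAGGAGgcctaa

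Of these 20 codons, 9 coded for glutamate in Tubb5, 8 in Tubb2a and Tubb2b, and 7 in Tubb3. The coding sequences of Tubb2a and Tubb2b differed at 47 of 1338 bases, 3 of them in the stretch shown, where 0 residues changed: both genes code for the same tail. This bears on the counting, since reads from identical stretches cannot be given to 1 gene. Of the 441 windows of 60 bases in the last 500 bases of each transcript, where a 3′ library reads, none of Tubb2a, Tubb2b, Tubb3, Tubb5 and Tuba1b lay whole in a transcript of another of the 25 tubulin genes searched. For Tuba1a 237 windows (53.7%) did, because its transcript has only 197 bases after the stop codon. The level of Tuba1a is therefore less certain than that of the other isotypes.

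In GRCm38.p6, the reference sequence of the mm10 build, Tubb2a lies at chr13:34074278-34078008 and Tubb2b at chr13:34127008-34130354, close neighbours on 1 chromosome. Tuba1a lies at chr15:98949847-98953501, Tubb3 at chr8:123411553-123422015 and Dcx at chrX:143855842-143933396. The remaining members are at chr3:55242303-55539068 (Dclk1), chr13:99421464-99516602 (Map1b), chr1:66175202-66442583 (Map2), chr11:104229409-104332090 (Mapt) and chr3:8509527-8561604 (Stmn2). A 3′ library does not tell apart the isoforms of these genes.

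Together the members took up 0.359% and 0.393% of all UMIs in RGC-like cells of replicates 2 and 4, 0.503% and 0.578% in IPC-like cells, and 1.60% and 1.56% in excitatory neuron-like cells. MGE interneuron-like cells were at 1.68% and 1.44%, Cajal-Retzius-like cells at 1.72% and 1.52%, and mesenchymal or mural-like cells at 0.182% and 0.232%. The 3 neuron classes thus lay above both progenitor classes in both libraries.

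**Figure D1:**
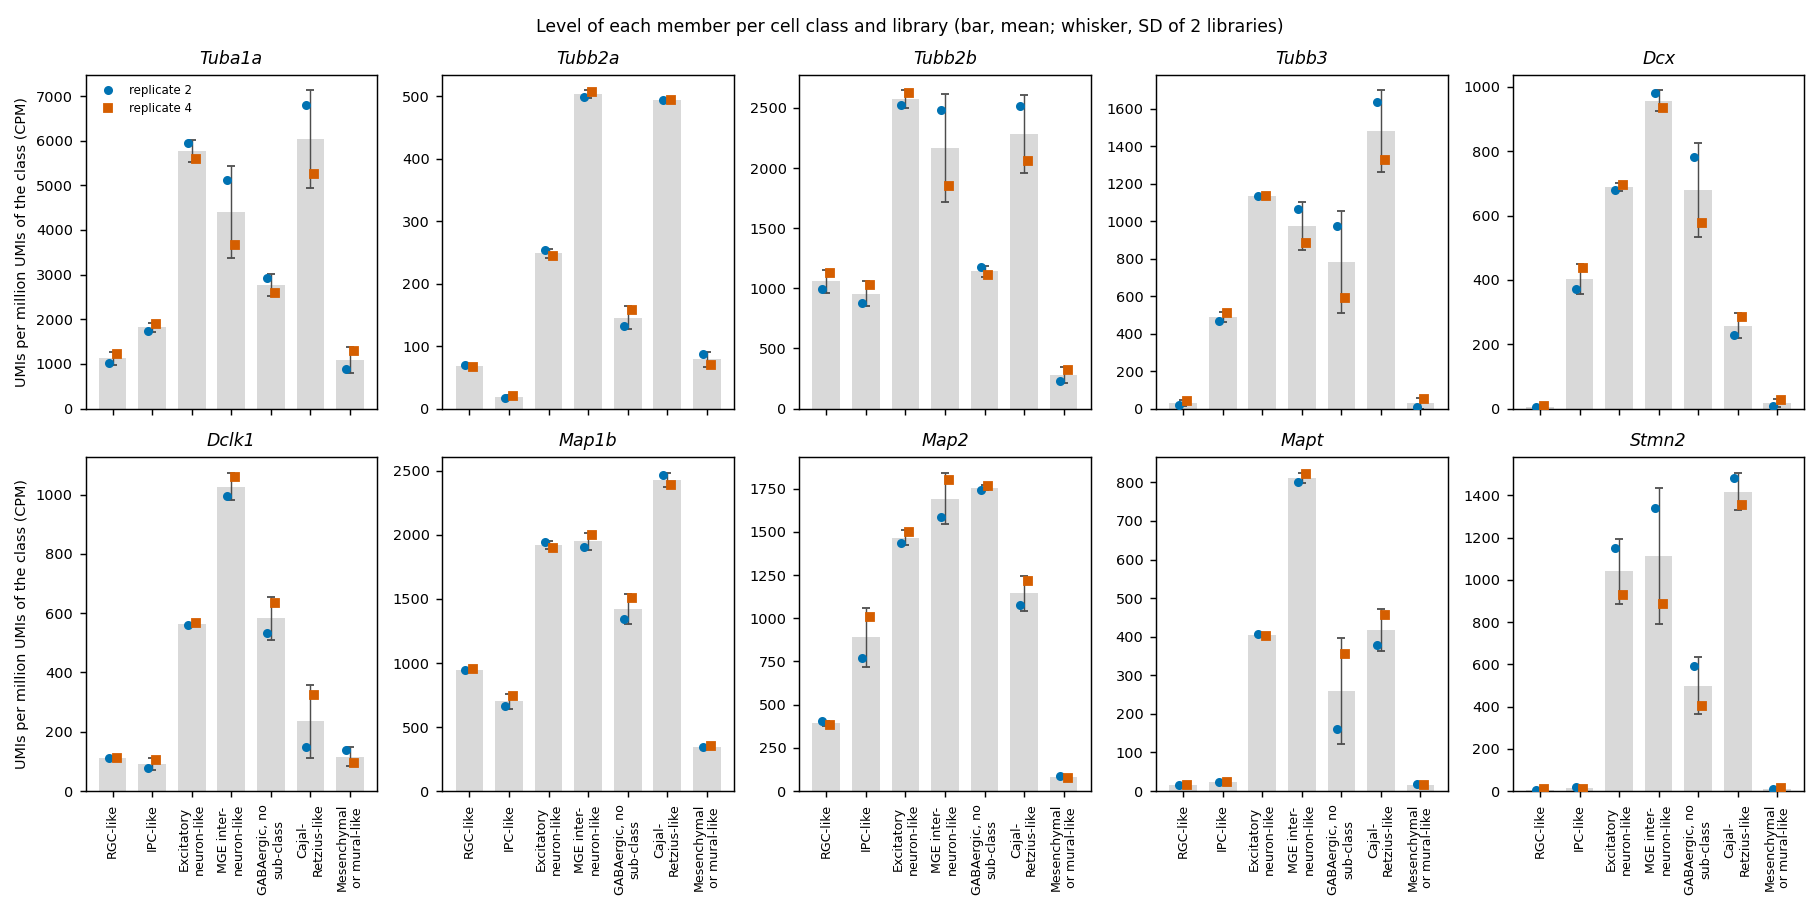
Level of each of the 10 members (CPM, linear axes that start at 0) in 7 cell classes. Circles are replicate 2 and squares replicate 4, bars the mean and whiskers the SD of the 2 libraries. Stmn2 and Mapt stand near 0 in both progenitor classes, whereas Tubb2b and Map1b stand well above it in all neural classes.

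The levels of the classes differed from member to member. Ordered by mean level over the 7 fitted classes, which the orders below refer to, the ranges of the 2 libraries overlapped in 16 of 60 neighbouring pairs. Levels are means ± SD over both libraries (n = 2), and are set side by side only within a gene.

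Tuba1a, the main α-tubulin of developing neurons, was highest in Cajal-Retzius-like (6033 ± 1094 CPM) and excitatory neuron-like cells (5771 ± 246 CPM), whose ranges overlapped. It followed with 4398 ± 1031 CPM among MGE interneuron-like, 1818 ± 100 CPM in IPC-like and 1122 ± 142 CPM in RGC-like cells, the last overlapping mesenchymal or mural-like cells. Tubb2b, a β-tubulin of migrating neurons, had overlapping ranges in RGC-like (1058 ± 96.1 CPM) and IPC-like cells (954 ± 105 CPM) and was at 2574 ± 71.4 CPM in excitatory neuron-like cells. Its neighbour on the chromosome, Tubb2a, showed another order. Tubb2a was highest in MGE interneuron-like cells (504 ± 5.80 CPM) and in Cajal-Retzius-like cells (494 ± 0.641 CPM), at 249 ± 6.88 CPM in excitatory neuron-like cells, and lowest in IPC-like cells (18.3 ± 2.97 CPM), below RGC-like cells (68.0 ± 1.68 CPM). Tubb3, the neuron-specific β-tubulin that the TUJ1 antibody detects, was at 30.3 ± 14.3 CPM in RGC-like, 488 ± 28.2 CPM in IPC-like and 1136 ± 0.351 CPM in excitatory neuron-like cells.

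Dcx, which braces the lattice of migrating neurons, was highest in MGE interneuron-like cells (957 ± 31.9 CPM) and lowest in RGC-like cells (5.97 ± 1.44 CPM). Among neurons it was lowest in Cajal-Retzius-like cells (257 ± 39.2 CPM), below IPC-like cells (404 ± 46.2 CPM). Its relative Dclk1, a doublecortin domain joined to a kinase, also had its lowest neuronal level there (235 ± 124 CPM) and its highest in MGE interneuron-like cells (1027 ± 46.1 CPM). Map1b, an axonal and growth-cone MAP, was lowest in mesenchymal or mural-like cells (348 ± 4.64 CPM) and ranged among the neural classes from 703 ± 58.1 CPM in IPC-like to 2428 ± 55.9 CPM in Cajal-Retzius-like cells. In CGE interneuron-like cells, outside the 7 classes, Dcx was at 1246 and 1089 CPM, Dclk1 at 1110 and 1362 CPM and Map2 at 2561 and 2651 CPM, each above the highest of the fitted classes in both libraries. Map2, the dendritic MAP, was at 889 ± 171 CPM in IPC-like cells and highest in the mixed set of GABAergic neuron-like cells with no sub-class (1755 ± 16.1 CPM). The range of that set overlapped that of MGE interneuron-like cells (1692 ± 148 CPM). Mapt, which codes for the axonal protein tau, reached 811 ± 13.4 CPM among MGE interneuron-like cells and 403 ± 3.74 CPM among excitatory neuron-like ones, and at 23.8 ± 0.770 CPM in IPC-like cells. Stmn2, a neuronal stathmin that binds free tubulin dimers in growth cones, had 1418 ± 88.2 CPM in Cajal-Retzius-like, 1113 ± 321 CPM among MGE interneuron-like and 1040 ± 156 CPM in excitatory neuron-like cells, against 16.4 ± 6.20 CPM in IPC-like cells.

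Free RNA sets a floor to such levels. In barcodes led by hemoglobin genes, which should hold none of the members, all members together were at 443 and 355 CPM, Tuba1a at 245 and 184 CPM, Stmn2 at 43.0 and 23.4 CPM, Tubb3 at 16.5 and 28.1 CPM, Tubb2a at 13.2 and 10.9 CPM, and Mapt and Dcx each at 9.92 and 6.24 CPM. These barcodes are far shallower than the cells, so that the floor is also given as UMIs per barcode. Stmn2 had 0.228 and 0.224 UMIs per hemoglobin-led barcode, 0.125 and 0.213 per RGC-like cell and 0.622 and 0.275 per IPC-like cell. Dcx had 0.0526 and 0.0597 per barcode and 0.173 and 0.195 per RGC-like cell, Tubb3 0.0877 and 0.269 against 0.707 and 1.13 per RGC-like cell, and Tubb2a 0.0702 and 0.104 against 0.486 and 0.470 per IPC-like cell. Stmn2 in RGC-like cells was thus below the hemoglobin-led barcodes on both scales and Dcx in RGC-like cells above them per barcode, but in CPM above in replicate 4 and below in replicate 2. Mesenchymal or mural-like cells, another class that should lack them, had 0.316 and 0.613 Dcx UMIs and 0.263 and 1.19 Tubb3 UMIs per cell. After thinning every cell to 5000 UMIs, 4.42% ± 0.364 of IPC-like cells had a Stmn2 UMI and 3.42% ± 3.43 of RGC-like cells, against 4.36% ± 1.28 of mesenchymal or mural-like cells, which was 1 cell of 19 and 1 of 29. Those shares are read as background, a level that rests on these few cells. Unthinned they were 16.3%, 14.6% and 20.8%, at median depths of 28630 and 22059 UMIs in IPC-like, 32506.5 and 26972.5 in RGC-like and 39628 and 26136 in mesenchymal or mural-like cells. For Dcx the thinned shares were 67.6% ± 1.30 of IPC-like, 2.34% ± 1.91 of RGC-like and 4.36% ± 1.28 of mesenchymal or mural-like cells (unthinned 80.6%, 10.5% and 9.51%), so that the RGC-like share was no higher than that of the mesenchymal or mural-like cells, again 1 of 19 and 1 of 29. For Tubb3 they were 80.7% ± 3.19, 12.6% ± 4.41 and 3.45% ± 4.88 (unthinned 96.4%, 39.9% and 31.5%). For Mapt they were 9.49% ± 1.63 of IPC-like, 8.76% ± 2.38 of RGC-like and 9.53% ± 6.03 of mesenchymal or mural-like cells (unthinned 35.2%, 31.1% and 40.8%), so that the progenitor shares were no higher than in a class that should lack it, although the level of Mapt in IPC-like (23.2 and 24.3 CPM) and RGC-like cells (15.1 and 16.1 CPM) was above that in hemoglobin-led barcodes.

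The first step asked which members change from the apical to the basal progenitor. In IPC-like cells 5 of 10 members rose against RGC-like cells and 1 fell, in a fit in which 13.8% of 12304 genes were called higher and 18.6% lower. A cluster of 50 and 87 cells with 11 RGC markers raised, but led by the choroid plexus gene Ttr, was not part of the RGC-like class. Dcx, Tubb3, Map2, Stmn2 and Tuba1a rose, and Tubb2a fell. The median log2 fold change of the members was 0.67, that of all genes -0.07. All adjusted p-values are from edgeR's quasi-likelihood test, with called standing for one below 0.05.

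Dcx stood at 4.95 and 6.99 CPM in RGC-like cells (36 and 65 UMIs) and at 371 and 436 CPM in IPC-like cells of replicates 2 and 4, a log2 fold change of 6.08 (SE 0.36, adjusted p = 7.3e-07). Tubb3 went from 20.2 and 40.4 CPM to 468 and 508 CPM (4.02, SE 0.53, adjusted p = 0.00018). For both genes the groups lay far apart in both libraries. Since the share of RGC-like cells with a Dcx UMI was at background, the size of its fold is uncertain. That of Tubb3 is uncertain too, since its level in RGC-like cells (30.3 ± 14.3 CPM) overlapped that in mesenchymal or mural-like cells (27.7 ± 30.3 CPM). Map2 was at 403 and 383 CPM against 768 and 1010 CPM (1.20, SE 0.19, adjusted p = 0.00058). Tuba1a was at 1021 and 1222 CPM against 1747 and 1889 CPM (0.72, SE 0.24, adjusted p = 0.038). The rise of Stmn2 (1.53, SE 0.39, adjusted p = 0.010) was between classes whose shares of cells with a Stmn2 UMI were both at background, and within the libraries it was 2.43 and 0.64.

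Tubb2a went the other way, from 69.2 and 66.8 CPM in RGC-like to 16.2 and 20.4 CPM in IPC-like cells (-1.86, SE 0.16, adjusted p = 8.6e-06). Thinned, 26.8% ± 0.0682 of RGC-like and 6.80% ± 1.19 of IPC-like cells had a Tubb2a UMI. The IPC-like level was not far above that in hemoglobin-led barcodes (13.2 and 10.9 CPM), which leaves the size of this fall uncertain. Tubb2b (-0.13), Dclk1 (-0.27), Map1b (-0.41) and Mapt (0.62) were not called. With the library as a block Map1b was called lower (-0.42, adjusted p = 0.030). Over 16 settings, that of the report included, Dcx and Tubb3 were called in all, Tubb2a and Map2 in 15, Tuba1a in 14 and Stmn2 in 11, and in 2 of the others Stmn2 was lower in IPC-like cells. Of the members not called in the report's fit, Mapt was called in 5 of the 16 and Map1b in 3, Tubb2b and Dclk1 in none. Over all 16 the fold change of Mapt ran from 0.28 to 1.51. The size of the changes of the called members depended on the setting as well. That of Tubb2a ran from -2.49 with cells thinned to -0.39 with genes scaled within each library before clustering, where it was not called (adjusted p = 0.15). That of Dcx ran from 3.21 to 6.31. In the Ttr-led cluster Dcx was at 89.6 and 80.9 CPM and Tubb2a at 44.2 and 24.8 CPM. With this cluster joined to the RGC-like class, an alternative chosen after the data were seen, the change of Dcx was 4.36 and that of Tubb2a -1.72, and both were called.

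The 100 bases before the start of the 2 β-tubulin genes that parted here are shown from RefSeq, with GGGCGG (the GC box, either strand) and TATAAA in capitals.
Tubb3 (chr8:123411453-123411552, plus strand): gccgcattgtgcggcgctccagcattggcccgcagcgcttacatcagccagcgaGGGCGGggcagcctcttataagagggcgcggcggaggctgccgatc
Tubb2a (chr13:34078009-34078108, minus strand): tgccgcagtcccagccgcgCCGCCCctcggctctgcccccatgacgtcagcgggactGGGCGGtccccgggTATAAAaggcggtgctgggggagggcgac

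Tubb2a had 2 GC boxes and 1 TATAAA in this window and Tubb3 1 GC box and no TATAAA. In the 250 bases before the start, Tubb2a and Tubb3 had 2 GC boxes each. Of the 7 members with a promoter sequence, Map2, Tubb3, Tubb2a, Map1b and Tuba1a held a GC box there, and Tubb2a, Map1b and Dcx TATAAA. Over 27025 promoters of that length, 32.9% held a GC box and 13.0% TATAAA, both strands searched. The E-box CAGCTG stood in none of the promoters of the 7 members in the table and in 12.8% of all, and CAGATG in that of Map1b alone and in 14.5% of all. A match of letters is a description and not a site.

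The next step asked what changes from the basal progenitor to the neuron. All 10 members rose in excitatory neuron-like against IPC-like cells, in a fit in which 21.7% of genes were called higher and 15.3% lower. The median log2 fold change of the members was 1.76, that of all genes 0.06. The largest were those of Stmn2, Mapt, Tubb2a and Dclk1.

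Stmn2 was at 20.8 and 12.0 CPM in IPC-like and at 1150 and 930 CPM in excitatory neuron-like cells (6.20, SE 0.42, adjusted p = 1.5e-06), and since the share of IPC-like cells with a UMI was at background this fold is uncertain in size. Mapt went from 23.2 and 24.3 CPM to 406 and 401 CPM (4.28, SE 0.30, adjusted p = 1.9e-06). The thinned share of cells with a Mapt UMI was 56.2% ± 2.13 in excitatory neuron-like cells. Tubb2a went from 16.2 and 20.4 CPM to 253 and 244 CPM (3.95, SE 0.17, adjusted p = 2.8e-07), so that its neuronal level was above that of RGC-like cells. Its IPC-like level was not far above that in hemoglobin-led barcodes (13.2 and 10.9 CPM), so this fold is uncertain in size. The fold of Mapt is uncertain in size too, given its share of cells with a UMI in IPC-like cells. Dclk1 went from 77.6 and 105 CPM to 559 and 566 CPM (2.82, SE 0.32, adjusted p = 3.5e-05).

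The other 6 members had smaller fold changes. Tuba1a reached 5945 and 5597 CPM (1.87, SE 0.24, adjusted p = 9.7e-05), Map1b 1942 and 1901 CPM (1.65, SE 0.16, adjusted p = 1.3e-05) and Tubb2b 2523 and 2624 CPM (1.63, SE 0.22, adjusted p = 0.00011). Tubb3 reached 1136 and 1135 CPM (1.42, SE 0.47, adjusted p = 0.035), Dcx 680 and 696 CPM (0.97, SE 0.28, adjusted p = 0.018) and Map2 1435 and 1499 CPM (0.92, SE 0.19, adjusted p = 0.0023). In no member did the libraries of the classes overlap. The calls of Tubb3, Dcx and Map2 were lost under some settings: between 7 and 10 members were called over the 15 settings, 7 of them when genes were scaled within each library before clustering.

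**Figure D2:**
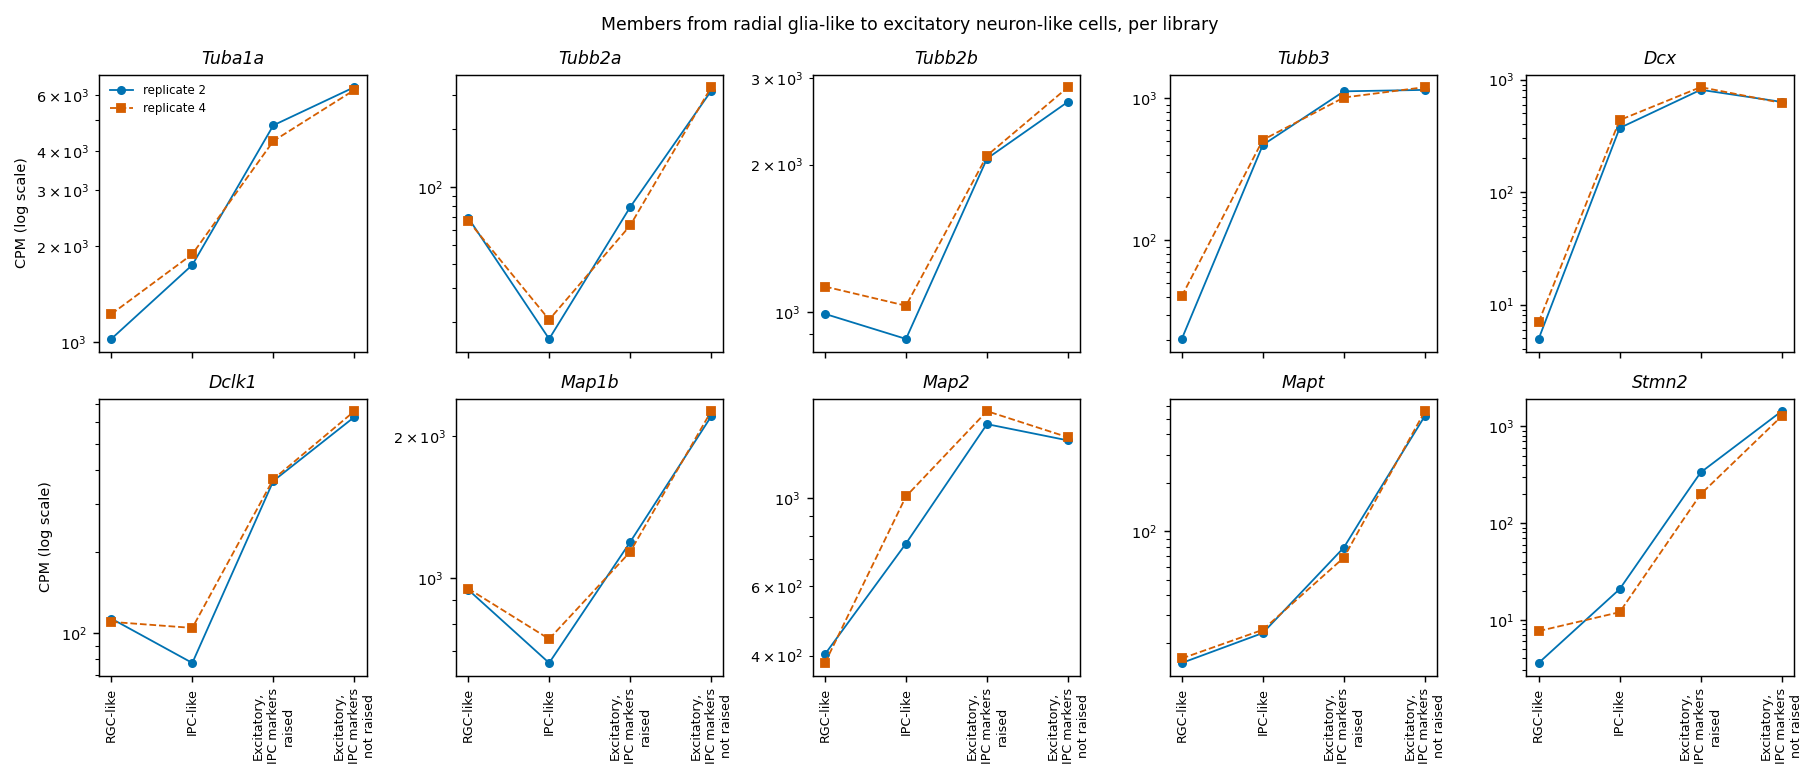
Level of each member (CPM, log axes) from RGC-like over IPC-like cells to excitatory neuron-like cells with and without raised IPC markers, in replicate 2 (circles) and replicate 4 (squares, dashed). Dcx and Tubb3 climb at the RGC-like to IPC-like step, Stmn2 and Mapt after it, and Tubb2a dips in IPC-like cells.

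The excitatory neuron-like class was then split by its IPC markers. Of its 1392 cells, 475 lay in 3 clusters with at least 3 IPC markers raised, and 917 in 4 clusters with fewer. In the clusters without raised IPC markers, 5 of 10 members rose and none fell, where 10.5% of 14445 genes were called higher and 6.90% lower. The 5 were Mapt, Stmn2, Tubb2a, Map1b and Dclk1.

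Mapt was at 79.1 and 68.5 CPM in the cells with raised IPC markers and at 522 and 558 CPM in the others (2.95, SE 0.26, adjusted p = 1.0e-05). Stmn2 was at 334 and 199 CPM against 1438 and 1277 CPM (2.43, SE 0.36, adjusted p = 0.00040). Tubb2a was at 78.5 and 63.0 CPM against 315 and 329 CPM (2.27, SE 0.15, adjusted p = 1.6e-06). For all 3 the libraries of both sets of cells lay apart. Map1b was at 1195 and 1138 CPM against 2207 and 2263 CPM (1.02, SE 0.15, adjusted p = 0.00042), and Dclk1 at 364 and 370 CPM against 628 and 659 CPM (0.89, SE 0.27, adjusted p = 0.040).

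Dcx and Map2 were not called. They were lower in both libraries of the cells without raised IPC markers, at 633 and 620 CPM against 811 and 857 CPM (-0.33, adjusted p = 0.47) and at 1398 and 1424 CPM against 1537 and 1658 CPM (-0.10, adjusted p = 0.78). Tubb3 (0.22), Tubb2b (0.51) and Tuba1a (0.54) were not called either. In the fit of these 2 sets of cells alone 8 members were called, with Dcx lower. Dclk1 was called in 8 of 14 settings.

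Single clusters differed as well. Among the clusters with raised IPC markers, Dcx was at 981 and 1027 CPM and Mapt at 123 and 130 CPM in one of 45 and 68 cells, and Dcx at 902 and 953 CPM and Mapt at 41.3 and 33.0 CPM in another of 65 and 132 cells. In the last of these clusters, of 62 and 103 cells, Dcx was at 649 and 694 CPM and Mapt at 89.5 and 73.0 CPM. Among those without, Mapt was at 858 and 926 CPM and Stmn2 at 2067 and 1609 CPM in a cluster of 45 and 106 cells, but Mapt at 166 and 150 CPM and Stmn2 at 707 and 558 CPM in one of 106 and 129 cells, where Dcx was at 758 and 729 CPM. Tubb2a followed them, at 483 and 432 CPM in the former and 81.8 and 61.7 CPM in the latter, whereas Tubb3 was at 1451 and 1341 CPM and at 1028 and 1112 CPM. Clusters share the libraries and are no replicates, and these values carry no test.

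The last comparison set the MGE interneuron-like cells against the excitatory neuron-like cells. Interneurons of this origin migrate tangentially and young excitatory neurons radially, but migration was not measured in these libraries. The comparison is therefore one of cell classes and not of modes of migration. Tubb2a and Mapt rose in MGE interneuron-like cells and no member fell, in a fit in which 7.56% of genes were called higher and 13.4% lower. Of the called genes 36.0% were higher, and 47.9% in DESeq2's test. The median log2 fold change of the members was 0.08, that of all genes -0.09. The class was small, with 54 and 83 cells at medians of 23450.5 and 10880 UMIs, and held fewer UMIs than the excitatory neuron-like class and either progenitor class.

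Tubb2a was at 499 and 508 CPM in MGE interneuron-like cells (622 and 565 UMIs) against 253 and 244 CPM (0.95, SE 0.15, adjusted p = 0.00095). Mapt was at 801 and 820 CPM against 406 and 401 CPM (0.94, SE 0.26, adjusted p = 0.025). Tubb2a was called in all 15 settings and Mapt in 10. Dclk1 was at 994 and 1059 CPM against 559 and 566 CPM (0.80, SE 0.30) and Dcx at 980 and 934 CPM against 680 and 696 CPM (0.41, SE 0.28). Their libraries did not overlap, but neither passed the test (adjusted p = 0.084 and 0.36). Over the 15 settings Dclk1 was called in 4 and Dcx in none.

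Map2 (0.14, SE 0.19), Map1b (-0.05, SE 0.16), Stmn2 (0.03, SE 0.33), Tubb3 (-0.29, SE 0.47), Tubb2b (-0.32, SE 0.21) and Tuba1a (-0.46, SE 0.24) were not called. Tuba1a and Tubb2b differed between the libraries of the MGE interneuron-like class, at 5127 and 3669 CPM and at 2483 and 1851 CPM, and the library with the lower levels was the one with the lower depth; the part of depth in this was not tested. Excitatory neuron-like cells without raised IPC markers had Mapt at 522 and 558 CPM and Tubb2a at 315 and 329 CPM, below both libraries of MGE interneuron-like cells as a set, a comparison for which no test was run. Single clusters of that set were not below: Mapt was at 858 and 926 CPM in one and at 811 and 850 CPM in another of 89 and 133 cells, in which Tubb2a was at 501 and 556 CPM.

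**Figure D3:**
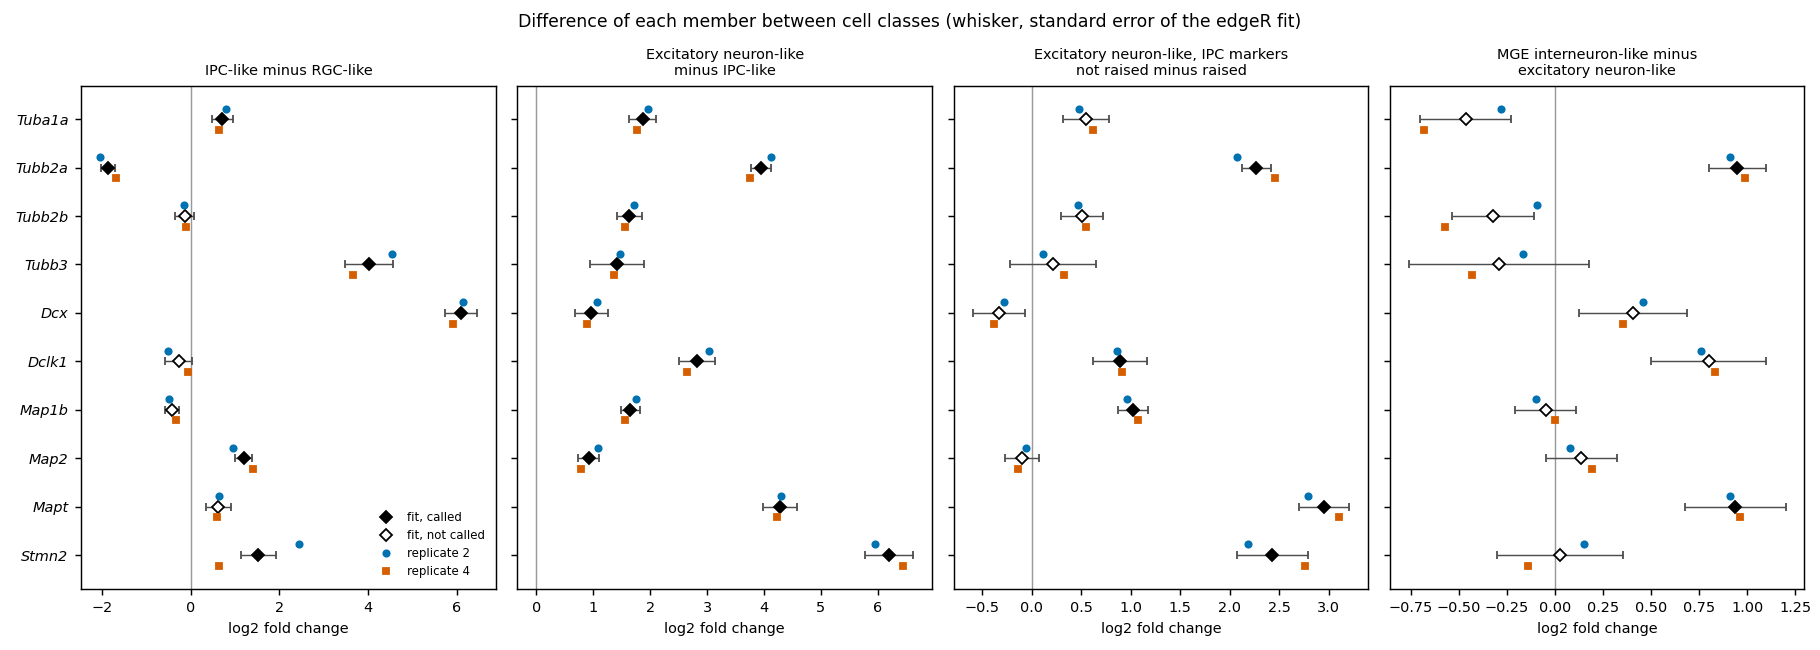
Log2 fold change of each member in the 4 comparisons. Diamonds are the edgeR fit with its standard error, filled where called, circles the value within replicate 2 and squares that within replicate 4. All 10 diamonds are filled and above 0 for excitatory neuron-like against IPC-like cells, whereas for MGE interneuron-like cells those of Tubb2a and Mapt alone are filled.

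The study turns on Sst-positive interneurons, so those of the MGE interneuron-like class are set beside its other cells without a test. The Sst-led sub-cluster of 0 and 21 cells, with 3 MGE and 4 CGE markers raised against the median GABAergic sub-cluster, was given no sub-class and is not among them. Of the MGE interneuron-like cells, 23 and 26 had at least 1 Sst UMI, at medians of 25713 and 15037 UMIs, and 31 and 57 had none, at 23396 and 9006 UMIs, so that the split goes with depth, and a cell without an Sst UMI may still hold the transcript. In excitatory neuron-like cells, which should lack Sst, 0.181% and 1.79% had a UMI, against 42.6% and 31.3% of the MGE interneuron-like cells (thinned 0% and 0.491% against 34.0% and 26.7%), at median depths of 34773.5 and 25153.5 against 23450.5 and 10880 UMIs. Mapt was at 962 and 1026 CPM in Sst-positive and 664 and 681 CPM in Sst-negative cells. Stmn2 was at 1574 and 1237 CPM against 1139 and 648 CPM. Map2 lay the other way, at 1386 and 1564 CPM against 1760 and 1955 CPM. Dcx (899 and 894 CPM against 1048 and 961 CPM) and Dclk1 (972 and 919 CPM against 1013 and 1154 CPM) had the lower values in Sst-positive cells too, and for Tuba1a, Tubb2a, Tubb2b, Tubb3 and Map1b the ranges overlapped. Within both libraries Tubb3 was lower in Sst-positive cells (952 and 803 CPM against 1160 and 939 CPM) and Map1b slightly higher (1914 and 2034 CPM against 1894 and 1971 CPM). Tuba1a, Tubb2a and Tubb2b differed in sign between the libraries.

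Within the tubulin families, the make-up changed with the class. Tuba1a made up 50.8% and 52.4% of the α-tubulin UMIs of RGC-like cells, 83.0% and 81.3% in IPC-like and 97.7% and 97.7% in excitatory neuron-like cells. Tuba1b, a widely expressed α-tubulin, had most of the rest, with 46.7% and 44.7%, 15.1% and 16.8%, and 2.07% and 1.95%. With the shared stretches of both genes in mind, the split is that of the authors' counting. MGE interneuron-like cells had 97.4% and 97.6% Tuba1a.

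Of the β-tubulin UMIs, Tubb5, a β-tubulin that most cells make, had 52.7% and 54.4% in RGC-like, 46.8% and 48.9% in IPC-like and 33.5% and 33.0% in excitatory neuron-like cells. Tubb3 went from 0.714% and 1.18% over 17.1% and 15.4% to 18.7% and 18.4%, and was at 18.3% and 18.7% in MGE interneuron-like cells. Its share was thus near the neuronal one in IPC-like cells already. Tubb2b had 35.0% and 32.8%, 32.1% and 31.1%, and 41.5% and 42.6%. Tubb2a had 2.44% and 1.95%, 0.592% and 0.618%, and 4.17% and 3.95%, and 8.58% and 10.7% in MGE interneuron-like cells.

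**Figure D4:**
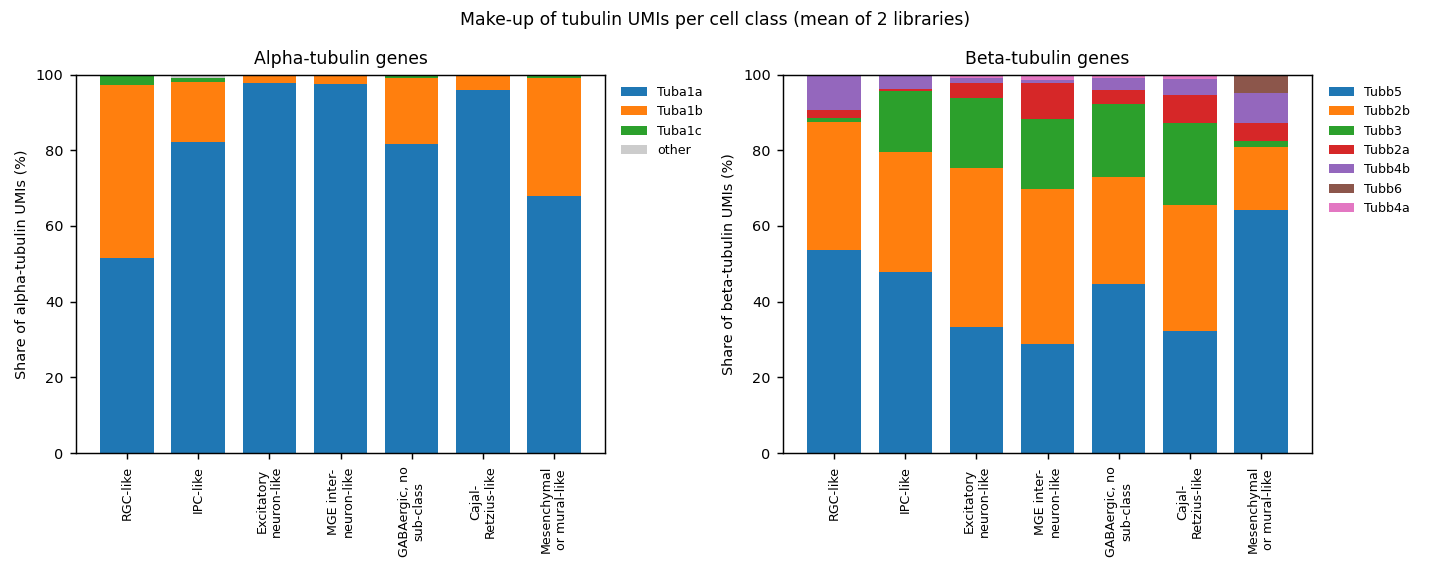
Share of each gene in the α-tubulin (left) and β-tubulin UMIs (right) of 7 cell classes, as the mean of 2 libraries, in stacked bars from 0 to 100%. Tuba1a and Tuba1b split RGC-like cells almost evenly, while Tuba1a fills nearly all of the bars of the 3 named neuron classes. Tubb3 is a thin band in RGC-like and mesenchymal or mural-like cells and a broad one in the other classes.

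Tuba1b also differed between clusters of a class. It was at 1396 and 1392 CPM in the RGC-like cluster of 75 and 145 cells and at 446 and 624 CPM in that of 100 and 133 cells, of which the former had dividing-cell markers raised and the latter did not, but another RGC-like cluster of 33 and 56 cells, also with dividing-cell markers raised, was at 677 and 660 CPM. In IPC-like cells it was at 1051 and 982 CPM in the dividing cluster and 135 and 107 CPM in the other, and Tubb4b at 343 and 328 CPM against 24.3 and 31.8 CPM. Tuba1a was higher in the dividing IPC-like cluster as well, at 2733 and 2511 CPM against 1499 and 1591 CPM. Tubb3, Dcx and Map2 were close in both, with Dcx at 403 and 370 CPM against 363 and 468 CPM.

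Of the genes always given beside the members, Tuba1b fell at both steps of the lineage, by 1.46 (SE 0.26, adjusted p = 0.0012) and 1.38 (SE 0.26, adjusted p = 0.0013) on the log2 scale. Without dividing clusters the second turned to 0.13. Tubb4b fell from RGC-like to IPC-like cells by 1.40 (SE 0.18, adjusted p = 0.00017), and was lower in MGE interneuron-like than in excitatory neuron-like cells, at 39.3 and 36.8 CPM against 78.3 and 76.0 CPM (-1.09, SE 0.21, adjusted p = 0.0037). Tubb5 was not called at the first step and rose at the second (0.69, SE 0.19, adjusted p = 0.014). Stmn1, the stathmin of progenitors and neurons alike, rose at both (0.62, SE 0.19, adjusted p = 0.023, and 0.79, SE 0.19, adjusted p = 0.0055). Over the settings, Stmn1 was called in 13 of 16 at the first step (adjusted p up to 0.25) and in 13 of 15 at the second (up to 0.11), Tubb5 at the second in 12 of 15 (up to 0.23), Tuba1b there in 13 of 15, and Tubb4b in MGE interneuron-like cells in 14 of 15. At the second step Tubb4b ran from -0.81 to 1.61 and was called in 5 of 15.

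Among 88 further genes of the pathway in 7 lists, 84 could be tested at the step from RGC-like to IPC-like cells, and 22 rose and 10 fell, where 13.8% and 18.6% of all genes did. Their median was 0.12, that of all genes -0.07. Cdk5r1, the activator of the kinase CDK5, which phosphorylates DCX and tau, rose from 7.56 and 5.59 CPM to 32.9 and 34.0 CPM (2.38, SE 0.19, adjusted p = 4.9e-06). Ttll7, a glutamylase of β-tubulin tails, rose from 3.58 and 2.15 CPM to 16.0 and 12.9 CPM (2.37, SE 0.24, adjusted p = 2.9e-05). Tuba4a, the α-tubulin gene without a coded tyrosine, was at 4 UMIs and 1 UMI in RGC-like and at 16.5 and 20.3 CPM in IPC-like cells, and was called higher (adjusted p = 7.2e-05), though 1 UMI gives no firm fold. Katnal2, a katanin-like severing subunit, fell by 1.73 on the log2 scale (SE 0.29, adjusted p = 0.00091).

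From IPC-like to excitatory neuron-like cells 38 of 84 rose and 8 fell, where 21.7% and 15.3% of all genes did, with a median of 0.53 against 0.06 over all genes. Tubulin-modifying enzymes had 9 of 15 higher and 2 lower, plus-end, dynein and LIS1 partners 9 of 18 and 1, microtubule-associated and doublecortin-family genes 6 of 17 and 2, and stathmins and severing enzymes 4 of 9 and 1. Kinases had 5 of 8 higher and folding cofactors 2 of 6, with none lower. The other tubulins had 3 of 11 higher and 2 lower, with a median of -0.17. Stmn4, a neuronal stathmin, rose from 15.6 and 13.6 CPM to 125 and 115 CPM (3.24, SE 0.27, adjusted p = 4.5e-06). Dync1i1, the neuronal dynein intermediate chain, was at 8 and 2 UMIs in IPC-like cells and at 153 and 138 CPM in excitatory neuron-like cells (adjusted p = 0.00010). Tubg2, a γ-tubulin, was at 3 and 2 UMIs and then at 5.75 and 5.77 CPM (adjusted p = 0.0016). Those that fell most were Tuba1c, which had 6 and 5 UMIs left in excitatory neuron-like cells (adjusted p = 2.4e-06), and the spindle proteins Tpx2 (-5.17, SE 0.49, adjusted p = 9.7e-06) and Prc1 (-4.64, SE 0.29, adjusted p = 1.1e-06). Their size depended on the setting: Tpx2 ran from -5.68 to -1.08 and lost its call in 2 of 15 settings, with genes scaled within each library (-1.09, adjusted p = 0.16) and without dividing clusters (-1.08, adjusted p = 0.14), while Prc1 ran from -5.15 to -1.22 and was called in all 15. Tuba1c ran from -6.70 to -2.14 and was called in the 14 settings in which it was tested, which leave out that without dividing clusters.

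Between the 2 sets of excitatory neuron-like cells 22 of 85 were higher without raised IPC markers and 5 lower, where 10.5% and 6.90% of all genes were. Dync1i1 was at 1.17 and 1.43 CPM with raised IPC markers (6 and 10 UMIs) and at 206 and 203 CPM without (7.33, SE 0.84, adjusted p = 6.1e-05). So few UMIs give no firm fold, and over the settings it ran from 6.45 to 9.50. Stmn4 was at 39.6 and 27.5 CPM against 155 and 157 CPM (2.30, SE 0.25, adjusted p = 4.7e-05), and Mtus2 rose by 1.81 (SE 0.43, adjusted p = 0.010). Agbl4, an enzyme that shortens glutamate chains, fell from 120 and 153 CPM to 15.6 and 19.7 CPM (-2.87, SE 0.28, adjusted p = 2.0e-05), Fign, a severing enzyme, by 2.34 (SE 0.61, adjusted p = 0.017, with the sign turned in 2 of the settings) and Tuba4a by 1.21 (SE 0.34, adjusted p = 0.027). Mtus2 and Tuba4a were called in 13 of 14 settings each and Fign in 11.

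In MGE interneuron-like cells 4 of 84 were higher and 8 lower than in excitatory neuron-like cells, where 7.56% and 13.4% of all genes were, with a median of 0.04 against -0.09 over all genes. Dclk2, another doublecortin-like kinase gene, was at 427 and 478 CPM against 144 and 150 CPM (1.55, SE 0.24, adjusted p = 0.00069). Mtus1 was higher by 0.72 (SE 0.21, adjusted p = 0.029) and Ttll11 by 0.87 (SE 0.28, adjusted p = 0.049), the latter with its call lost in 7 of 14 settings, the library as a block (adjusted p = 0.057) among them. Dync1i1 was at 6.42 and 12.6 CPM (8 and 14 UMIs) against 153 and 138 CPM (-4.02, SE 0.87, adjusted p = 0.0065). Map1a fell by 1.15 (SE 0.22, adjusted p = 0.0031), with its call kept in 13 of 15 settings, and that of Mtus1 in 14. Tuba4a had 2 UMIs and none in MGE interneuron-like cells, against 14.2 and 19.7 CPM (adjusted p = 0.0054).

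Across the 14 class sums the levels of the members moved together to different degrees, with Pearson's r of log2(CPM + 10) from 0.42 to 0.97 over 45 pairs (median 0.78). The genes outside the set most like each member were Rab3a and Arl8a for Tuba1a (r = 0.98 and 0.98), Ppp3ca and Cnih2 for Tubb2a (0.96 and 0.96), Kif1a and Zcchc18 for Tubb2b (0.96 and 0.96), and Parp6 and Scg3 for Tubb3 (0.99 and 0.98). For Dcx they were Slc43a2 and Rere (0.98 and 0.97), for Dclk1 Adam22 and Zeb2 (0.98 and 0.98), for Map1b Zcchc18 and Gfod2 (0.98 and 0.98) and for Map2 Smarca4 and Zmiz2 (0.99 and 0.98). For Stmn2 they were Ina and Actl6b (0.99 and 0.99), and for Mapt Cacna1b was among them (0.99). The 14 sums are 7 classes in 2 libraries and share depth and library, so these are descriptions.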

How the data were processed

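Raw UMI counts per gene and barcode were deposited by the authors, made per the labels with Cell Ranger 7.0.0 on mm10 after its cell calling, from 3′ libraries. Intronic counting is not given in the sources used here. Barcodes under 1000 genes or over 10% mitochondrial UMIs were removed, and Scrublet doublets left out per library with scanpy 1.11.5 (12 and 48, 0.991% and 2.44%). Cells were scaled to 10000 UMIs, log-transformed and clustered (2000 variable genes, without the members and pathway lists, 30 components, 20 neighbours, Leiden resolution 1), and GABAergic clusters were clustered again. A name needed 3 markers raised by a log2 ratio of 1 to the median cluster (10 CPM added) in 25% of cells, and went to the class with most raised markers, unless the 10 leading genes held more markers of another class, or held none of its own in a cluster of low depth. A sub-class, with markers raised against the median GABAergic sub-cluster, also needed 0.5 of its markers raised or one leading, and no other sub-class's marker leading. The naming rule was revised after the first clustering had been seen. Clusters without a name (319 cells) entered no comparison.

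UMIs were summed per library and class. The 14 sums of classes with 10 or more cells per library went into a single fit in edgeR 4.0.16 (quasi-likelihood, TMM, filterByExpr, Benjamini-Hochberg over all genes), and in that of the split excitatory class 14445 genes were tested. All 10 members passed the filter. Standard errors are the fold change over the root of F. With 2 libraries of 1 group, p-values measure the spread between these sums, and classes were made from the counts tested. In bulk-like sums, fewer cells with a transcript and less RNA per cell cannot be told apart. Sums of a number come from 1 library, which pairs them, and the median correlation of their deviations was 0.0854 (21 class pairs, -0.0197 to 0.330). The fits were also run on simulated counts with the same mean profile in every class and a small set of genes changed. That run does not test fits in which as many genes differ between classes as here.

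The members and lists were chosen with earlier results of these data known. Named were all members, Tuba1b, Tubb5, Tubb4b and Stmn1, per comparison up to 3 called list genes a direction with the largest fold change and 1 sign in both libraries, and per member the 2 most correlated genes. Single clusters were picked after their values were seen. Promoters of Tubb2b, Mapt and Stmn2 are not in the table used. Some sequences and 1 correlated gene are not reported here.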

Additional observations from a re-analysis of the deposited data

Results flagged for a closer look

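Barcodes outside the comparisons also held UMIs of the members, above the limit that a count of 0 allows. Barcodes led by hemoglobin genes held 134 UMIs of the 10 members in replicate 2 (57 barcodes, 443 CPM) and 228 in replicate 4 (67 barcodes, 355 CPM). The other barcodes under the gene minimum held 3971 in replicate 2 (385 barcodes, 9981 CPM) and 3619 in replicate 4 (356 barcodes, 10736 CPM), a level between those of IPC-like and MGE interneuron-like cells. In the latter barcodes Map1b was at 2209 and 2020 CPM, above its level in excitatory neuron-like cells (1942 and 1901 CPM), while Dcx was at 287 and 225 CPM, below that in the same cells (680 and 696 CPM). Map2 was at 488 and 282 CPM against 1435 and 1499 CPM.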

How the results depend on the processing

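Of the tests of the members' fold changes under the alternatives, 489 left sign and call as they were, 31 lost a call, 17 gained one and 23 turned sign, of which only Stmn2 between IPC-like and RGC-like cells (5% mitochondrial UMIs and Leiden resolution 0.5) was called in the report's fit, and none under the alternative. The cause of the changes was not tested. Depth limits values that rest on few UMIs, among them Dcx in RGC-like cells and Stmn2 in both progenitor classes, whose shares of cells with a UMI were at background. With the IPC markers as the split, Leiden resolution 0.5 gave no value, since no excitatory cluster there had them raised. Without 1 library each class had 1 sum and no test.

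For IPC-like against RGC-like cells, 500 genes as the minimum per cell gave 2056 genes called and 3 members. The members' median log2 fold change was 0.24 at 5% mitochondrial UMIs, 0.87 with doublets kept, 0.38 at Leiden resolution 0.5, 1.04 at 2, 1.23 after scaling genes within each library, 1.09 with classes and tests on separate UMIs and 0.50 with cells thinned to 5000 UMIs. For excitatory neuron-like against IPC-like cells, the compared classes alone gave 6913 genes called and thinning 2977, and the members' median was 1.56 at 5% mitochondrial UMIs, 1.44 with doublets kept, 1.50 at resolution 2, 1.24 scaled within each library, 1.46 on separate UMIs and 1.56 thinned. Between the sets of excitatory neuron-like cells, the compared classes alone gave 4377 genes and 8 members called and thinning 1516 genes, and the median was 1.03 at 500 genes, 0.79 at 5% mitochondrial UMIs, 0.48 at resolution 2, 0.65 on separate UMIs and 0.58 thinned. Where MGE interneuron-like cells were set against excitatory neuron-like ones, 500 genes gave 1620 genes called and thinning 1645, and 1 member was called at 500 genes, at 5% mitochondrial UMIs, with doublets kept, at resolution 0.5 and without dividing clusters. The median was 0.17 with DESeq2's size factors and 0.17 in its test, 0.10 with the compared classes alone, 0.067 at 5% mitochondrial UMIs, 0.066 with doublets kept, -0.034 at resolution 0.5, 0.027 at resolution 2, 0.053 scaled within each library, 0.10 on separate UMIs, 0.27 thinned, 0.10 without dividing clusters and 0.10 to 0.11 without 1 library. Of the genes called there, 49.3% were higher after thinning and 47.9% in DESeq2's test, against 36.0% in the report's fit. For excitatory neuron-like against IPC-like cells the share was 46.3% on separate UMIs against 58.7%.

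The sign turned in these cases. Between IPC-like and RGC-like cells, Tubb2b was at 0.045 (5% mitochondrial UMIs), 0.027 (doublets kept), 0.021 and 0.17 (resolutions 0.5 and 2), 0.41 (scaled within each library), 0.24 (separate UMIs) and 0.10 (without dividing clusters), Dclk1 at 0.12 (5%), 0.40 and 0.051 (resolutions 0.5 and 2) and 0.53 (scaled), Stmn2 at -0.36 (5%) and -0.41 (resolution 0.5), Map1b at 0.078 (scaled), and Tubb5 at 0.10 (500 genes) and 0.012 (without dividing clusters). Between MGE interneuron-like and excitatory neuron-like cells, Map1b was at 0.036 with DESeq2's size factors and 0.035 in its test and at 0.20 thinned, and Stmn2 at -0.020 (5%), -0.050 (doublets kept), -0.30 and -0.091 (resolutions 0.5 and 2), -0.068 (scaled) and -0.064 (separate UMIs). Between excitatory neuron-like and IPC-like cells, Tuba1b was at 0.13 scaled and 0.13 without dividing clusters, and Tubb4b at 0.95 and 1.61. Fign was at 0.18 with doublets kept and 0.90 on separate UMIs.

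A fit that took each library as a replicate block called 4251, 4848, 2825 and 2760 genes in the 4 comparisons in the order of the report, and 7, 10, 5 and 2 members. It changed no other call of a named gene than those of Map1b and Ttll11 given in the report. Of the levels and shares of classes under the alternatives, 303 of 504 levels and 137 of 252 shares moved by less than 1 SD of the 2 libraries.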
